A study of Homo sapiens with 12 samples.

Results

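The 9 transcripts described here encode the main glucose transporter of cultured cells, 7 enzymes of glycolysis and the lactate dehydrogenase subunit that works at its end. They were chosen by a list of 10 Ensembl transcript identifiers with the gene symbols that go with them, and 9 of the 10 had a row in the count files, out of 18338 transcripts in all. The transcripts were SLC2A1 (ENST00000426263), HK2 (ENST00000290573), PFKP (ENST00000381125), TPI1 (ENST00000396705), PGK1 (ENST00000373316), PGAM1 (ENST00000334828), ENO1 (ENST00000234590), PKM (ENST00000335181) and LDHA (ENST00000422447). The identifier listed for GAPDH was in none of the 12 files, and GAPDH is not analysed here. The files give no gene names, so each symbol rests on the list, and each value belongs to the named transcript and not to all transcripts of its gene.

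Glycolysis splits glucose into pyruvate in the cytosol and yields ATP without oxygen. Glucose enters through facilitative transporters, is trapped by phosphorylation, is split into triose phosphates and is then oxidised and rearranged to pyruvate, which can be reduced to lactate. Proliferating cultured cells use the route heavily, both for ATP and for building blocks. Its later enzymes are made in large amounts, whereas the transporter and the enzymes that commit glucose to the pathway are classical points of control.

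The cells were HEK293T, an established line derived from human embryonic kidney and transformed by viral genes, labelled wild type (WT). Their treatment label is GSK-A1, which inhibits PI4KA, the lipid kinase that makes phosphatidylinositol 4-phosphate at the plasma membrane. At 0, 60 and 360 min, 2 replicates each were sequenced as ribosome-protected fragments (RPF, footprints left where ribosomes cover an mRNA during digestion) and as polyadenylated mRNA, giving 6 groups and 12 libraries. The comparison across times is the one the design text names. The treatment label is the same in all 12 libraries, so the 0 min libraries are the reference only by the time in their names, and no library of a vehicle at 60 or 360 min is analysed here. The labels do not say whether replicates were separate cultures, and p-values then measure only the spread between these samples, which may be technical. The identity of the line was not checked against marker genes, because the files give no gene names.

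Library totals ran from 429026 counts (mRNA, 360 min, replicate 1) to 1165740 counts (RPF, 0 min, replicate 1). All 9 transcripts were listed in all 12 files, with between 22 counts (SLC2A1) and 2150 counts (LDHA) in a library. Levels below are in CPM, the share of a library's counts on a common scale, adjusted by trimmed mean of M-values (TMM) within an assay. CPM is not divided by transcript length, so levels are compared between times for 1 transcript and not between transcripts. A level is a share of its library, and a change common to all RNA of the cells does not show in it. Together the 9 transcripts held between 0.371% and 0.757% of a library's counts. The mean share in RPF was 0.543% ± 0.113 (SD, n = 2) at 0 min, 0.512% ± 0.185 at 60 min and 0.451% ± 0.112 at 360 min. In mRNA it was 0.551% ± 0.167, 0.649% ± 0.152 and 0.558% ± 0.0627 at the same times. Within each assay the replicates of all 3 times overlapped in the summed share, and no test was made of it. By replicate number, the RPF share at 0, 60 and 360 min was 0.463%, 0.381% and 0.371% in replicate 1. In replicate 2 it was 0.623%, 0.643% and 0.530%. The mRNA share at the same times was 0.668%, 0.541% and 0.603% in replicate 1, and 0.433%, 0.757% and 0.514% in replicate 2. The 10 most abundant transcripts, none of them a member, held 14.1% and 14.7% of the counts of the mRNA libraries at 360 min and between 8.07% and 10.7% in the other mRNA libraries, and the part of this in the members' mRNA changes was not tested.

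No member passed an adjusted p of 0.05 in any of the comparisons between times, in RPF, in mRNA or in their ratio (edgeR quasi-likelihood test, Benjamini-Hochberg adjustment over all transcripts tested). The background was the same: 0% of 9653 transcripts in RPF, 0% of 9693 in mRNA and 0% of 8632 in the ratio were called. Without adjustment, transcripts with p under 0.05 numbered 223, 377 and 753 in RPF, 133, 865 and 998 in mRNA and 151, 489 and 405 in the ratio, for 60 min against 0 min, for 360 min against 0 min and from 60 to 360 min. Of the 9 members, SLC2A1 was under that value at 60 min against 0 min, in both RPF and the ratio, and from 60 to 360 min in RPF, and no other member was in any comparison between times. DESeq2, run on the same counts, called 1, 1 and 2 transcripts in RPF, 0, 8 and 66 in mRNA and 0, 0 and 2 in the ratio, and none of them was a member. It gave no adjusted p for SLC2A1 and HK2 in mRNA at 360 min against 0 min, nor for SLC2A1 from 60 to 360 min.

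**Figure D1:**
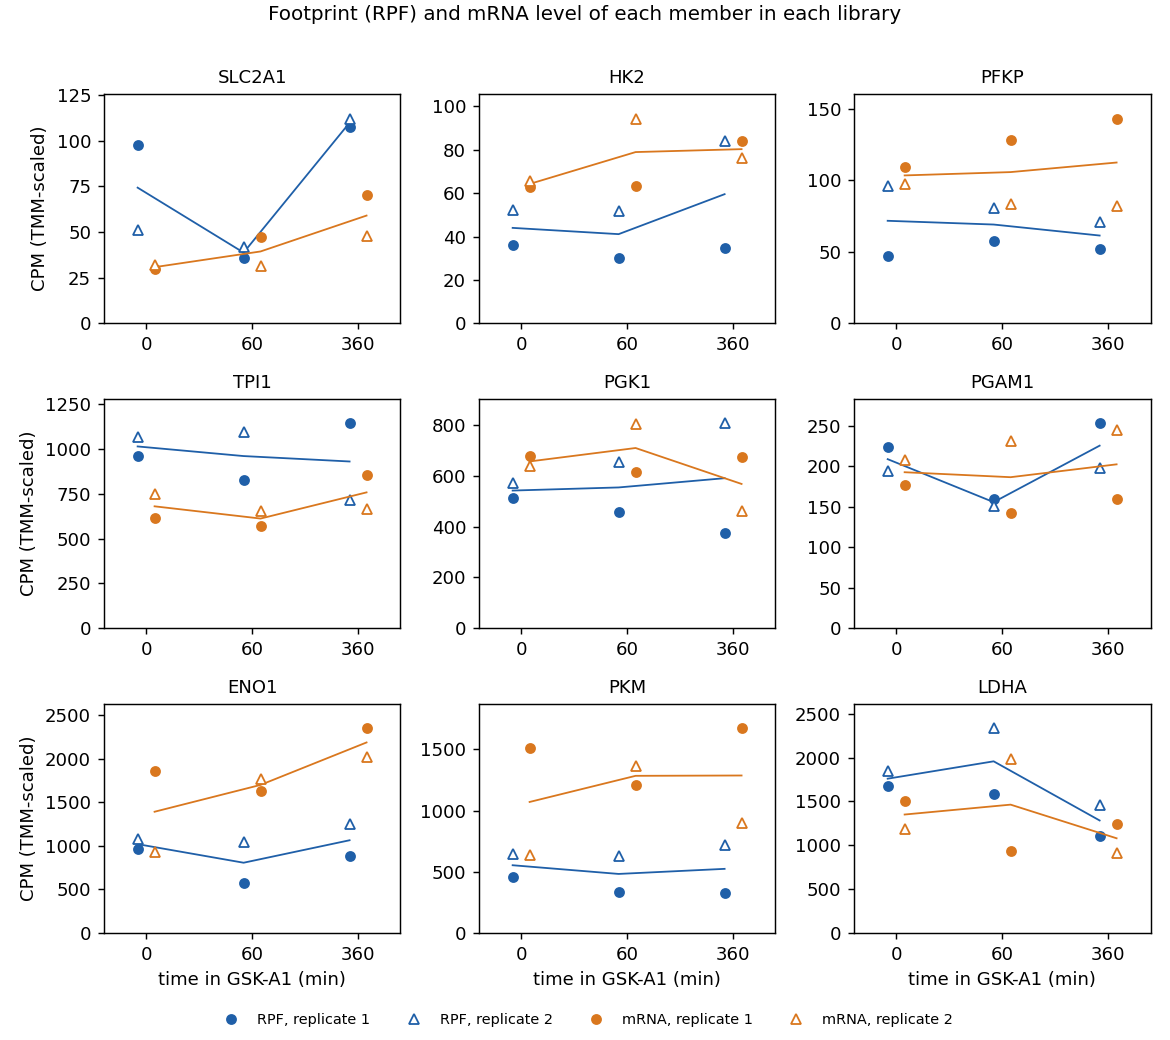
Level in CPM (TMM-scaled, linear axis from 0) of each of the 9 transcripts at 0, 60 and 360 min, in RPF (blue) and mRNA (orange) libraries. Filled circles are replicate 1, open triangles replicate 2 and lines join the means, and the times are evenly spaced and not to scale. The SLC2A1 footprint level was 35.7 and 41.8 CPM at 60 min, below all 4 RPF libraries of the other times, while most other panels show replicates as far apart as the times.

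Median changes of the members were small beside their errors. In RPF the median log2 change of the 9 was -0.11 at 60 min against 0 min (all transcripts -0.01), 0.06 at 360 min against 0 min (all transcripts 0.02) and 0.12 at 360 min against 60 min (all transcripts 0.04). In mRNA the medians were 0.12, 0.16 and 0.08 for the same comparisons, against -0.02, -0.03 and -0.04 over all transcripts. In RPF, 7 of the 9 had a negative estimate at 60 min against 0 min, as had 51.0% of all transcripts. In mRNA 7 of the 9 had a positive estimate in each of the 3 comparisons, without any of them passing the test. Over all transcripts 51.7%, 51.8% and 52.3% of the mRNA estimates were negative in the same comparisons. The comparisons share control libraries, so these counts are not independent of each other.

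SLC2A1, which encodes GLUT1, the transporter that lets glucose across the plasma membrane, had its lowest footprint level at 60 min. Its RPF level was 97.8 and 50.9 CPM at 0 min, 35.7 and 41.8 CPM at 60 min and 108 and 112 CPM at 360 min (replicates 1 and 2). Both 60 min libraries lay below both 0 min libraries and both 360 min libraries lay above all others. The RPF counts behind these levels were 106 and 46, then 33 and 29, then 77 and 60.

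The fitted RPF change of SLC2A1 was -0.95 on the log2 scale (SE 0.41, 95% interval -1.81 to -0.09) at 60 min against 0 min, with an adjusted p of 0.9994 in edgeR. From 60 to 360 min the estimate was 1.50 (SE 0.41, 95% interval 0.63 to 2.37), a fold of 2.84, with an adjusted p of 0.41 in edgeR. By unadjusted p it ranked 44 of 9653, and the change stood above 98.2% of all transcripts. Against 0 min the 360 min level differed by 0.56 (SE 0.39, 95% interval -0.27 to 1.38, adjusted p 0.9999). The 2 replicates of 0 min were far apart: the 60 min estimate of SLC2A1 was -0.39 without RPF 0 min replicate 1 and -1.32 without RPF 0 min replicate 2. The estimate from 60 to 360 min moved less, between 1.38 and 1.57 over the libraries left out.

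The mRNA of SLC2A1 was 29.6 and 32.0 CPM at 0 min, 47.3 and 31.5 CPM at 60 min and 70.1 and 48.0 CPM at 360 min. The 60 min replicates spanned the 0 min ones, and both 360 min libraries were above all 4 earlier ones. The last separation depends on the scaling. As a plain share of counts, 360 min replicate 2 (0.00455%) was below 60 min replicate 1 (0.00480%). These levels rest on 22 to 41 counts a library. The estimate at 360 min against 0 min was 0.92 (SE 0.43, 95% interval -0.06 to 1.90, adjusted p 0.58 in edgeR), and at 60 min against 0 min it was 0.35 (SE 0.42).

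The ratio of RPF to mRNA, taken from mean CPM, was 2.41 for SLC2A1 at 0 min, 0.984 at 60 min and 1.86 at 360 min. With any pairing of an RPF and an mRNA library of a time, it lay between 1.59 and 3.31 at 0 min, between 0.754 and 1.33 at 60 min and between 1.54 and 2.34 at 360 min. The 60 min range lay below the ranges of both other times. How many of all transcripts had ratio ranges set apart in this way was not counted. In the joint fit of both assays the change of the ratio was -1.29 (SE 0.59, 95% interval -2.56 to -0.01, adjusted p 1.00 in edgeR) at 60 min against 0 min, -0.41 (SE 0.59) at 360 min against 0 min and 0.88 (SE 0.59) from 60 to 360 min. Without RPF 0 min replicate 1 the estimates of SLC2A1 against 0 min were -0.74 at 60 min and 0.13 at 360 min.

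**Figure D2:**
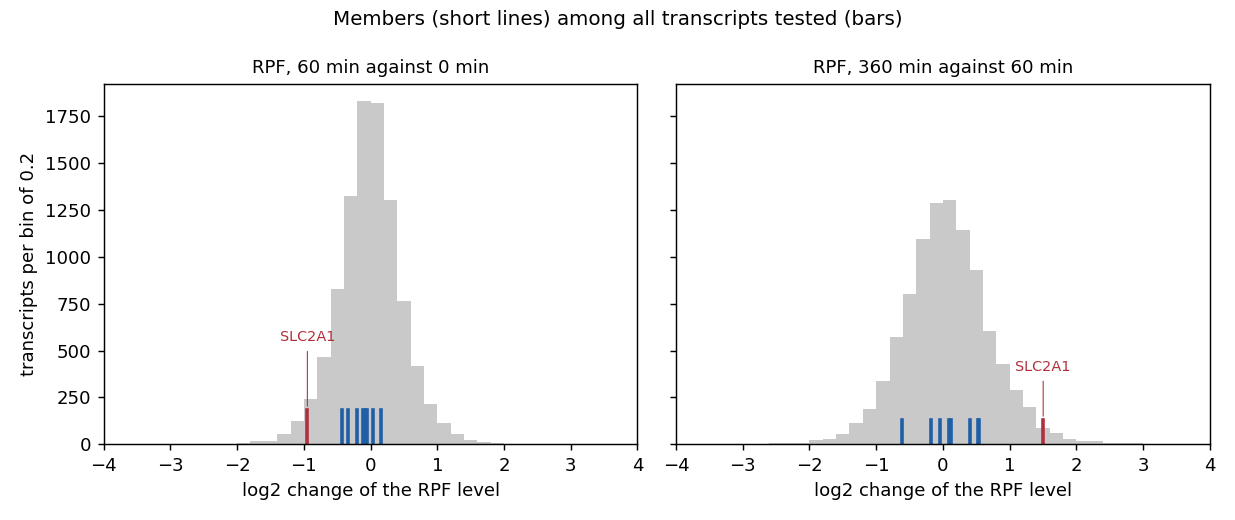
Number of transcripts per bin of 0.2 in the log2 change of the RPF level (bars, all 9653 transcripts tested), with the 9 members as short lines, for 60 min against 0 min and 360 min against 60 min. SLC2A1 (red) stands at -0.95 and at 1.50, and the other 8 members (blue) lie among the bulk of the transcripts.

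Groups whose replicates did not overlap were counted for the members beside all transcripts tested, as a description. In RPF at 60 min against 0 min, SLC2A1 and PGAM1 were lower in both replicates (2 of 9, against 16.0% of all transcripts) and no member was higher (15.2% of all). At 360 min against 0 min, SLC2A1 was higher (13.6% of all) and LDHA lower (13.8% of all). At 360 min against 60 min, SLC2A1 and PGAM1 were higher (17.5% of all) and LDHA lower (18.0% of all). These counts are near what the background gives for 9 transcripts. In mRNA no member was set apart at 60 min against 0 min (13.4% of all higher, 12.3% lower). At 360 min against 0 min SLC2A1, HK2 and ENO1 were higher (19.8% of all) and none lower (19.1% of all), and at 360 min against 60 min SLC2A1, TPI1 and ENO1 were higher (20.7% of all) and none lower (19.6% of all). In mRNA at 360 min against 60 min, SLC2A1 and TPI1 were set apart only after TMM scaling. As plain shares of counts their libraries overlapped (for TPI1, 0.0629% in 360 min replicate 2 and 0.0704% in 60 min replicate 2). With 9 transcripts, a count of 3 in mRNA is not read as more than these percentages give.

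HK2, the hexokinase that traps glucose as glucose 6-phosphate, had RPF levels of 36.0 and 52.0 CPM at 0 min, 30.3 and 51.9 CPM at 60 min and 35.0 and 84.1 CPM at 360 min. Replicate 2 was the higher at each time, and the groups overlapped. The estimate at 360 min against 0 min was 0.42 (SE 0.47), and it was -0.33 for HK2 without RPF 360 min replicate 2, so that library carried its sign. Its mRNA was 63.0 and 65.5 CPM at 0 min, 63.5 and 94.4 CPM at 60 min and 84.2 and 76.4 CPM at 360 min. Both 360 min libraries were above both 0 min libraries, and the estimate was 0.32 (SE 0.39).

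PFKP, the platelet type of phosphofructokinase, which catalyses the committed step, had RPF levels of 47.0 and 96.3 CPM at 0 min, 57.3 and 80.8 CPM at 60 min and 51.7 and 71.0 CPM at 360 min. Both 60 min and 360 min libraries lay within the range of the 0 min replicates. The RPF estimates were -0.05 (SE 0.42) at 60 min and -0.22 (SE 0.43) at 360 min against 0 min. For PFKP they were 0.56 and 0.35 without RPF 0 min replicate 2, and -0.48 and -0.66 without RPF 0 min replicate 1. Its mRNA was 109 and 97.6, then 128 and 83.3, then 143 and 81.7 CPM, with replicate 1 the higher at each time and an estimate of 0.11 (SE 0.43) at 360 min against 0 min.

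TPI1, the isomerase that interconverts the triose phosphates, had RPF levels of 963 and 1065 CPM at 0 min, 826 and 1095 CPM at 60 min and 1142 and 718 CPM at 360 min. The replicates of each later time spanned those of 0 min. Its RPF estimates were -0.08 (SE 0.56) and -0.12 (SE 0.56) at 60 and 360 min against 0 min, and its mRNA estimates -0.15 (SE 0.44) and 0.16 (SE 0.44). The mRNA levels were 613 and 747, then 570.5 and 653, then 853 and 663 CPM.

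PGK1, the kinase that makes the first ATP of the pathway, had RPF levels of 512 and 571 CPM at 0 min, 456 and 652 CPM at 60 min and 375 and 806 CPM at 360 min. The gap between its replicates was widest at 360 min, and the means of the 3 times lay between 542 and 590.2 CPM. The RPF estimate at 360 min against 0 min was 0.12 (SE 0.51), and for PGK1 it was -0.54 without RPF 360 min replicate 2 and 0.53 without RPF 360 min replicate 1. Its mRNA was 676 and 636, then 613 and 805, then 673 and 462 CPM, with an estimate of -0.21 (SE 0.45) at 360 min against 0 min.

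PGAM1, the mutase that moves the phosphate of 3-phosphoglycerate, was the other member with both 60 min RPF libraries below those of the other times. Its RPF levels were 224 and 194 CPM at 0 min, 160.1 and 152 CPM at 60 min and 253 and 198 CPM at 360 min. Both 60 min libraries lay below the other 4, and the 0 and 360 min libraries overlapped. The RPF estimate was -0.42 (SE 0.38, 95% interval -1.23 to 0.38, adjusted p 0.9994 in edgeR) at 60 min against 0 min and 0.54 (SE 0.38, 95% interval -0.27 to 1.34, adjusted p 0.77) from 60 to 360 min. Its mRNA was 177 and 208, then 142 and 231, then 159.9 and 245 CPM, and replicate 2 was the higher at each time. The mRNA estimates of PGAM1 were -0.04 (SE 0.43) and 0.08 (SE 0.44) against 0 min.

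ENO1, the enolase that makes phosphoenolpyruvate, had RPF levels of 967 and 1074 CPM at 0 min, 571 and 1043 CPM at 60 min and 884 and 1247 CPM at 360 min, and the groups overlapped. Its mRNA was 1859 and 926 CPM at 0 min, 1628 and 1773 CPM at 60 min and 2351 and 2025 CPM at 360 min. Both 360 min libraries were above the other 4, whose lowest was replicate 2 of 0 min. The mRNA estimate of ENO1 at 360 min against 0 min was 0.65 (SE 0.52, 95% interval -0.53 to 1.83, adjusted p 0.71 in edgeR), and it ran from 0.23 without mRNA 0 min replicate 2 to 1.29 without mRNA 0 min replicate 1. The RPF estimate for the same times was 0.06 (SE 0.57).

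PKM, the muscle-type pyruvate kinase that makes pyruvate and ATP, had RPF levels of 458 and 649 CPM at 0 min, 338 and 628 CPM at 60 min and 329 and 719.7 CPM at 360 min. Replicate 2 was the higher at each time, by more than any distance between the means of the times. Its mRNA was 1507 and 634 CPM at 0 min, 1207 and 1361 CPM at 60 min and 1672 and 901 CPM at 360 min. At 0 and 360 min the mRNA replicates were farther apart than the means of any of the times. The mRNA estimate of PKM at 360 min against 0 min was 0.26 (SE 0.57), running from -0.24 without mRNA 360 min replicate 1 to 1.07 without mRNA 0 min replicate 1, and from 60 to 360 min it was 0.0021 (SE 0.57).

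LDHA, the subunit of lactate dehydrogenase that favours the reduction of pyruvate to lactate, had RPF levels of 1675 and 1845 CPM at 0 min, 1581 and 2335 CPM at 60 min and 1109 and 1458 CPM at 360 min. Both 360 min libraries lay below the 4 earlier ones. The RPF estimate was -0.46 (SE 0.62, 95% interval -1.77 to 0.86, adjusted p 0.9999 in edgeR) at 360 min against 0 min and -0.61 (SE 0.63, 95% interval -1.93 to 0.71, adjusted p 0.84) from 60 to 360 min. Its mRNA was 1511 and 1191, then 939 and 1989, then 1246 and 915 CPM, with groups that overlapped and an estimate of -0.32 (SE 0.53) at 360 min against 0 min.

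**Figure D3:**
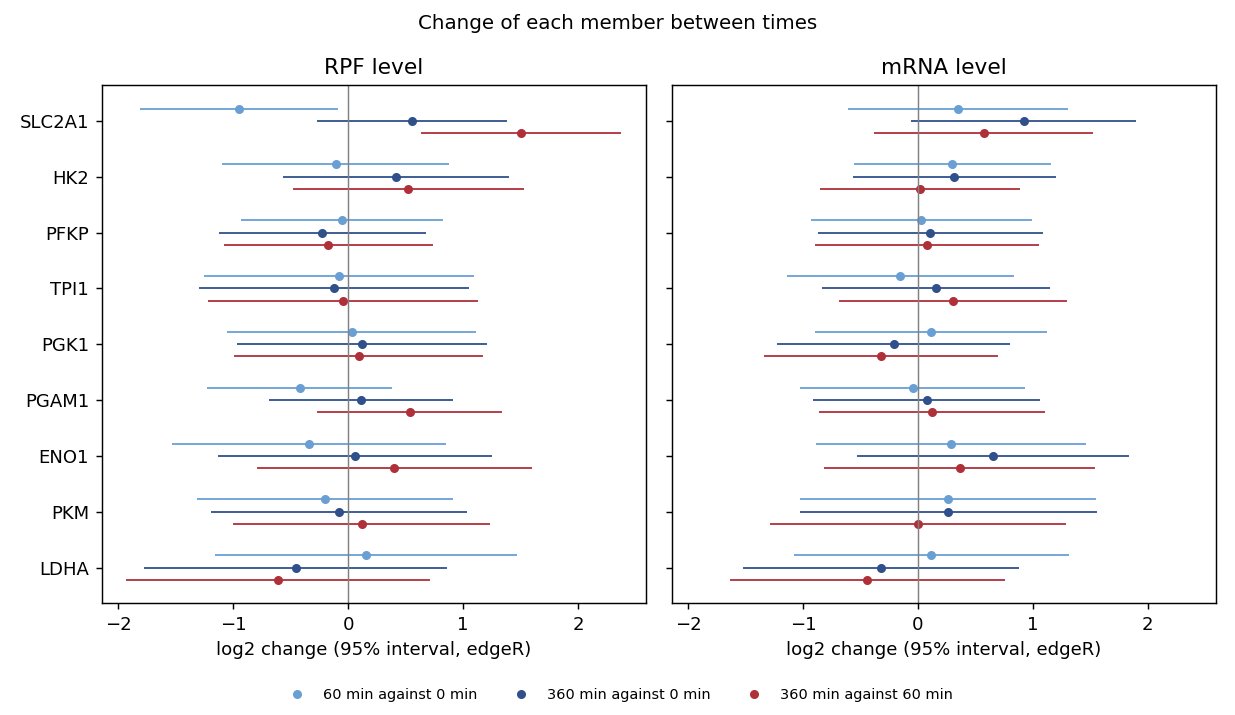
Log2 change of the RPF level (left) and the mRNA level (right) of each of the 9 transcripts between times, as points, with 95% intervals from edgeR as lines and no adjustment for the number of transcripts. Only the SLC2A1 RPF intervals for 60 min against 0 min (-1.81 to -0.09) and 360 min against 60 min (0.63 to 2.37) leave out 0.

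For members other than SLC2A1 the SE of an RPF change between times ran from 0.38 (PGAM1) to 0.63 (LDHA), and over all transcripts the median SE was 0.47 at 60 min against 0 min. At 360 min against 0 min the narrowest 95% interval of an RPF change was that of PGAM1 (-0.69 to 0.91 on the log2 scale) and the widest that of LDHA (-1.77 to 0.86). These intervals are not adjusted for the number of transcripts: that of SLC2A1 from 60 to 360 min left out 0 without a call. When each library was left out in turn, the sign held throughout at 60 min against 0 min for 2 members in RPF (SLC2A1 and PGAM1) and 3 in mRNA (SLC2A1, HK2 and TPI1). At 360 min against 0 min it held for 2 members in RPF (SLC2A1 and LDHA) and 4 in mRNA (SLC2A1, HK2, ENO1 and LDHA), and the estimates of the others changed sign without at least 1 library.

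The order of the replicates was the same at all times for most members in RPF. Replicate 2 was above replicate 1 at all 3 times for 6 of the 9 members (HK2, PFKP, PGK1, ENO1, PKM and LDHA), against 19.0% of all transcripts tested. PGAM1 had the reverse order at all 3 times, and SLC2A1 and TPI1 had no fixed order. In mRNA 1 member, PGAM1, had replicate 2 above replicate 1 at all 3 times and 1 member, PFKP, had it below. For the reverse order in RPF and for both orders in mRNA, the share over all transcripts was not counted. The mRNA of PGK1, ENO1, PKM and LDHA was higher in replicate 1 at 0 and 360 min and in replicate 2 at 60 min. What separates the replicates is not given in the labels. With replicate number added to the edgeR fit as a block, 0 members were called in every comparison. In RPF at 60 min against 0 min, the SE of LDHA then fell from 0.62 to 0.38 and that of PKM from 0.53 to 0.35. That of PFKP rose from 0.42 to 0.50, and those of the other members fell. The SEs and intervals given for each member are from the fit without this block.

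RPF and mRNA levels were then set against each other within a time. The ratio compares a transcript's share of footprints with its share of mRNA, and the region counted for each is not given in the sources used here. A ratio of 1 depends on the scaling and is not an absolute balance. At 0 min the median log2 ratio of all transcripts was 0.12, and 0.0034 with TMM over all 12 libraries. Over all transcripts 11.1% were called at 0 min, 13.3% at 60 min and 14.6% at 360 min (adjusted p under 0.05 in edgeR), and 0 of the 9 members were called at each time. At an unadjusted p under 0.05, 2615, 2515 and 2560 transcripts passed, and 1 member did at each time: SLC2A1 at 0 min and PKM at 60 and 360 min. By DESeq2 1463, 1407 and 1465 transcripts were called, with SLC2A1 among those at 0 min and no other member at any time. DESeq2 was run with scaling set separately within each assay and without library totals. The depth difference between RPF and mRNA libraries therefore stayed in its ratio, and its counts are not comparable with those of edgeR. The median log2 ratio of the members was -0.28 at 0 min, -0.35 at 60 min and -0.0038 at 360 min, against 0.12, 0.08 and 0.15 over all transcripts. The 360 min median is the value of PGK1, which ran from -0.64 to 0.48 over the libraries left out. It does not describe a rise of most members: the change of the ratio from 0 to 360 min was negative for 7 of the 9.

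At 0 min SLC2A1 had the highest ratio of the 9. Its log2 ratio then was 1.27 (SE 0.42, 95% interval 0.37 to 2.17, adjusted p 0.064 in edgeR). It was called by edgeR with no filter on low counts (1.35, adjusted p 0.048). DESeq2 also called it (1.49, adjusted p 0.028), but that value holds the depth difference between the assays and is not a second measure of the same ratio. Over the libraries left out, the log2 ratio of SLC2A1 at 0 min ran from 0.75 (without RPF 0 min replicate 1) to 1.63 (without RPF 0 min replicate 2). Over the other edgeR settings that kept all libraries, its adjusted p ran from 0.048 to 0.082. At 60 min the log2 ratio of SLC2A1 was -0.02 (SE 0.42) and at 360 min 0.86 (SE 0.42, adjusted p 0.19).

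**Figure D4:**
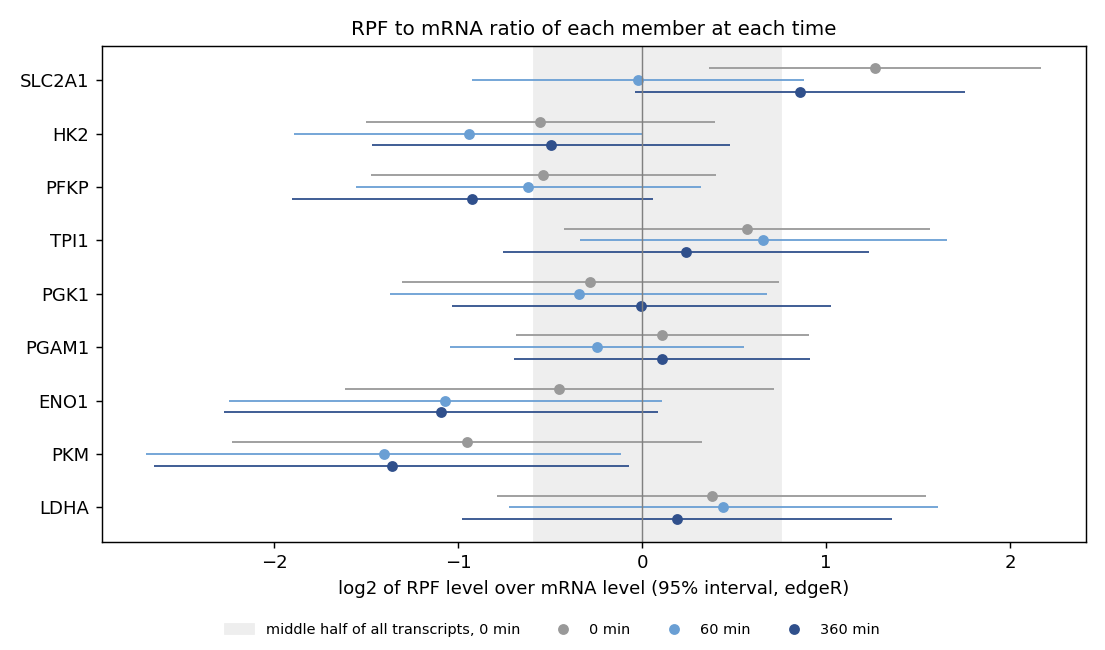
Log2 of the RPF level over the mRNA level of each of the 9 transcripts at 0, 60 and 360 min, as points, with 95% intervals from edgeR as lines. The grey band is the interquartile range of all transcripts at 0 min (-0.59 to 0.75). SLC2A1 lies above it at 0 min (1.27) and at 360 min (0.86), and PKM lies below it at all 3 times (-0.95, -1.40 and -1.36). ENO1 and PFKP at 60 and 360 min and HK2 at 60 min also lie below this band, which is that of 0 min only.

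PKM had the lowest ratio of the members at every time. Its RPF to mRNA ratio of mean CPM was 0.517 at 0 min, 0.376 at 60 min and 0.407 at 360 min. The log2 ratio was -0.95 (SE 0.60, adjusted p 0.30), -1.40 (SE 0.60, adjusted p 0.14) and -1.36 (SE 0.60, adjusted p 0.15 in edgeR). All RPF libraries of PKM were below all its mRNA libraries of the same time at 60 and 360 min, but not at 0 min, where the highest ratio of any pair of libraries was 1.02. For PKM the 0 min value was -0.19 without mRNA 0 min replicate 1.

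ENO1 had ratios of 0.733, 0.475 and 0.487 at 0, 60 and 360 min, and log2 ratios of -0.45 (SE 0.55), -1.07 (SE 0.55, adjusted p 0.21 in edgeR) and -1.09 (SE 0.55, adjusted p 0.20). At 60 and 360 min every RPF library of ENO1 was below every mRNA library. At 0 min they overlapped, and the log2 ratio of ENO1 turned to 0.15 without mRNA 0 min replicate 1.

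The early enzymes also had ratios under 1 at each time. HK2 had ratios of 0.685, 0.521 and 0.742, and PFKP had ratios of 0.693, 0.653 and 0.546. For PFKP every pair of an RPF and an mRNA library gave a ratio under 1 at each time, with the highest at 0.987. For HK2 the highest pair at 360 min was 1.10. The adjusted p of HK2 was lowest at 60 min (0.17) and that of PFKP at 360 min (0.19).

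TPI1 and LDHA had ratios above 1 at each time. The values were 1.49, 1.57 and 1.23 for TPI1 and 1.30, 1.34 and 1.19 for LDHA at 0, 60 and 360 min. At 360 min their fitted log2 ratios, 0.24 and 0.19, were close to the median of all transcripts (0.15). At 0 min every pair of libraries of both transcripts gave a ratio above 1, and the lowest pair later was 0.842 for TPI1 (360 min) and 0.795 for LDHA (60 min). PGK1 (0.825, 0.781 and 1.04) and PGAM1 (1.08, 0.835 and 1.11) lay around 1. The order of the 9 at 0 min was SLC2A1, TPI1, LDHA, PGAM1, PGK1, ENO1, PFKP, HK2 and PKM. Neighbours in that order overlapped in their ranges over pairs of libraries, apart from PGAM1 (0.930 to 1.26) and PGK1 (0.757 to 0.898).

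The change of the ratio between times was tested in the joint fit of both assays. Against 0 min, 7 of the 9 had a negative estimate at 60 min and 7 at 360 min, beside 48.8% and 49.4% of all transcripts. The members' median was -0.36 and -0.33, against 0.02 and 0.01 over all transcripts. At 360 min against 60 min the median of the members was 0.04 and that of all transcripts 0.03. Single estimates at 60 min against 0 min ran from -1.29 (SLC2A1) to 0.09 (TPI1). ENO1 had estimates of -0.62 (SE 0.77) and -0.64 (SE 0.77) at 60 and 360 min against 0 min, and PKM of -0.45 (SE 0.84) and -0.41 (SE 0.84). Both comparisons rest on the same 0 min libraries: without mRNA 0 min replicate 2 the estimates at 60 min were -0.19 for ENO1 and 0.05 for PKM, and without mRNA 0 min replicate 1 they were -1.21 and -1.21.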

How the data were processed

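Ribo-seq (RPF) and mRNA-seq libraries of HEK293T cells were grouped by the assay, time and replicate number in their titles. The deposited values are read counts by Ensembl transcript, 1 file a library, and hold whole numbers that the authors did not normalize, judged from the values. Footprints were cut from monosome and polysome fractions after RNase I digestion, per the labels' protocols. Bowtie 1.2.3, STAR 2.7.10a and cutadapt 2.8 are named in the submitters' processing notes, without their roles. The genome build, annotation, counted region, use of strand and treatment of reads that map to several places are not given in the sources used here, so counts of transcripts that share reads with pseudogenes or other isoforms, which glycolysis genes have in number, are uncertain. Files list only transcripts with counts, and an absent row was taken as 0.

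The tests used edgeR 4.0.16 under R 4.3.3, with filterByExpr, TMM within an assay, and the quasi-likelihood test on the 6 libraries of an assay (9653 RPF and 9693 mRNA transcripts tested). Both assays together (12 libraries, 8632 transcripts) gave the RPF to mRNA ratio and its change as an interaction. Benjamini-Hochberg adjustment ran over all transcripts tested, with a threshold of 0.05. Non-overlap means that both replicates of a group lie above, or below, both of the other in CPM. Intervals of a share of counts cover counting error only. The fits were tested on simulated data with planted changes larger than any change of a member between times. Whether changes of the members' size would be detected was not examined. DESeq2 1.42.0, other scalings and filters, a replicate block and leaving out each library were the alternatives.

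The members and lists were chosen with earlier results of these data known. All members with a row are named. Of the 18338 identifiers, 0 were found in the name tables used here, so other genes of the pathway, genes of like pattern and cell markers are not named, and RPF per codon was not computed, since no protein lengths were used here.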

Additional observations from a re-analysis of the deposited data

How the results depend on the processing

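Of 207 counts of called members under other settings, 205 were 0. The exceptions were RPF against mRNA at 0 min, where 1 member, SLC2A1, was called by DESeq2 and 1, again SLC2A1, by edgeR with no filter on low counts. The DESeq2 ratios within a time, here and among the values that follow, hold the depth difference between the assays. Of 1863 recomputed log2 values of members, 1689 kept their direction, 172 took the other sign where the reported value itself lay within 1 SE of 0, and 2 took it where the reported value lay farther from 0, both for HK2: leaving out 1 library each, its RPF change from 60 to 360 min ran from -0.22 (without RPF 360 min replicate 2) to 1.01, and its log2 RPF to mRNA ratio at 360 min from -1.23 to 0.051 (without RPF 360 min replicate 1). The cause was not tested.

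Counts over all transcripts moved more. Without RPF 0 min replicate 1, 0 transcripts were called for RPF against mRNA at 0 min, against 954 with it, and without RPF 360 min replicate 1, 75 were called in RPF from 60 to 360 min, against 0 with it. Counts for RPF against mRNA were 0 to 1911 at 0 min, 291 to 1759 at 60 min and 480 to 1714 at 360 min, each highest with no filter. With no filter 113 were called in mRNA from 60 to 360 min and 89 at 360 min against 0 min. Scaling by library totals alone moved the median log2 change of all transcripts to -0.19 in mRNA at 360 min against 0 min and to -0.28 from 60 to 360 min.

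Replicate numbers pair samples only by name. Differences between replicates correlated across transcripts at 0.33 to 0.35 between times in RPF and at -0.48, -0.15 and 0.40 in mRNA. With the replicate block 0 members were called in every comparison, the SLC2A1 change from 60 to 360 min was 1.51 (adjusted p 0.14), and 1, 2 and 7 transcripts were called in RPF. With the numbers of mRNA 0 min crossed, a pairing chosen after seeing the data, 0 were called in mRNA. The share of counts without GAPDH was not run, as its row is absent. Counts of 22 to 41 limit the SLC2A1 mRNA level.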
